A study of Mus musculus with 6 samples.

Results

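The SMAD proteins and the SKI-type corepressors form the intracellular part of TGF-beta and BMP signalling. Their 10 genes were taken by symbol from a table of 24421 gene rows: the BMP-regulated Smad1, Smad5 and Smad9, the TGF-beta and activin-regulated Smad2 and Smad3, the common partner Smad4, the inhibitory Smad6 and Smad7, and the corepressor genes Ski and Skil. All 10 had a row, and 9 had enough counts to be tested among 13548 genes; Smad9 did not. The cells were LK cells, bone marrow cells that lack lineage markers and carry the receptor c-Kit, a gate that holds haematopoietic stem cells and myeloid, erythroid and megakaryocyte progenitors. Wild type C57BL/6 mice were compared with littermates on the same strain that carry ASXL1-MT-KI, a knock-in of mutant ASXL1, all 8 to 12 weeks old and with no treatment named. ASXL1 acts on chromatin, and its gene is often mutated in myeloid neoplasms. Each group had 3 libraries, called WT1 to WT3 and KI1 to KI3 after genotype and replicate number. The sources used here do not give whether a library was 1 animal or a pool, or which promoter or Cre drives the knock-in.

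TGF-beta family ligands bind paired type II and type I receptor kinases at the cell surface. The type I receptor phosphorylates the receptor-regulated SMADs at their carboxy end, and these join SMAD4, enter the nucleus and act on target genes with other DNA-binding factors. Among the targets are the pathway's own brakes: SMAD7 recruits SMURF ubiquitin ligases to the type I receptor, and SnoN, the product of Skil, binds SMAD complexes with SKI and recruits NCoR and histone deacetylases. In blood formation, TGF-beta is known for holding stem cells in quiescence and BMP signals for acting on early progenitors.

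Receptor-regulated SMADs are told apart from the other SMADs by their last residues, of the form Ser-Ser-X-Ser, which the type I receptor phosphorylates. In the annotated coding sequences, codons for serine stand at positions 1, 2 and 4 of the last 4 codons in Smad1, Smad2, Smad3, Smad5 and Smad9 and not in Smad4, Smad6 or Smad7. The last 30 coding bases of 5 genes are shown to make this division visible, with the last 4 codons before the stop codon in capitals.
Smad3, TGF-beta and activin arm: tccccgagcatccgctgtTCCAGTGTGTCT
Smad1, BMP arm: tcaccccacaatcctattTCATCCGTGTCT
Smad5, BMP arm: tctccgctgaaccccattTCTTCTGTTTCA
Smad9, BMP arm: tccccacacaaccctatcTCTTCAGTGTCT
Smad6, inhibitory: tggctggagatcctactcAACAACCACAGA
The 4 receptor-regulated genes end in serine codons that differ in spelling, and Smad6 ends in other codons. This ending sets the receptor-regulated SMADs apart from the other members, and does not separate the BMP arm from the TGF-beta arm.

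The libraries held 40462168 to 47579480 counts. Asxl1 itself separated the labelled groups. It stood at 165.2 to 176.0 CPM (counts scaled to library size with TMM factors) in the wild type libraries. In ASXL1-MT-KI it stood at 310.2 to 326.6 CPM, 1.88-fold higher. As the promoter of the knock-in is not given, these levels alone do not show which group carries it. Libraries of the same number deviated together across the 2 groups, so each count was also taken with the replicate number as a block and with numbers 1 and 2 only. The 8 progenitor genes read as markers of LK cells, of which only Kit is part of the gate, were all expressed. Their summed level, mostly Mpo, was 15535 to 17304 CPM in wild type and 16032 to 16737 CPM in ASXL1-MT-KI. Of these 8, Flt3, a receptor gene of early progenitors, fell from 123.9 ± 12.0 to 79.1 ± 4.90 CPM (adjusted p = 0.000688, edgeR), Cd34 fell from 375.2 ± 22.2 to 302.7 ± 6.56 CPM (adjusted p = 0.00449, edgeR), and Myb rose from 842.1 ± 22.6 to 968.1 ± 30.9 CPM (adjusted p = 0.0174, edgeR). Kit, at 406.4 and 382.9 CPM, did not pass.

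Skil and Smad7 were lower in ASXL1-MT-KI cells, by 3.06-fold and 1.99-fold, and the other 7 tested genes did not pass an adjusted p of 0.05. No member rose in the edgeR quasi-likelihood test, and at an unadjusted p under 0.05 the count was still 0, as it was in DESeq2 and limma-voom. Across all genes 16.0% passed the threshold, 7.69% as falls and 8.29% as rises. A fall of at least 2-fold was called for 1.56% of genes, and Skil was among these. By p-value Smad7 ranked 10 and Skil 14 among the 1042 genes that fell. The median log2 fold change of the 9 members was -0.12, against 0.0009 over all genes.

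**Figure D1:**
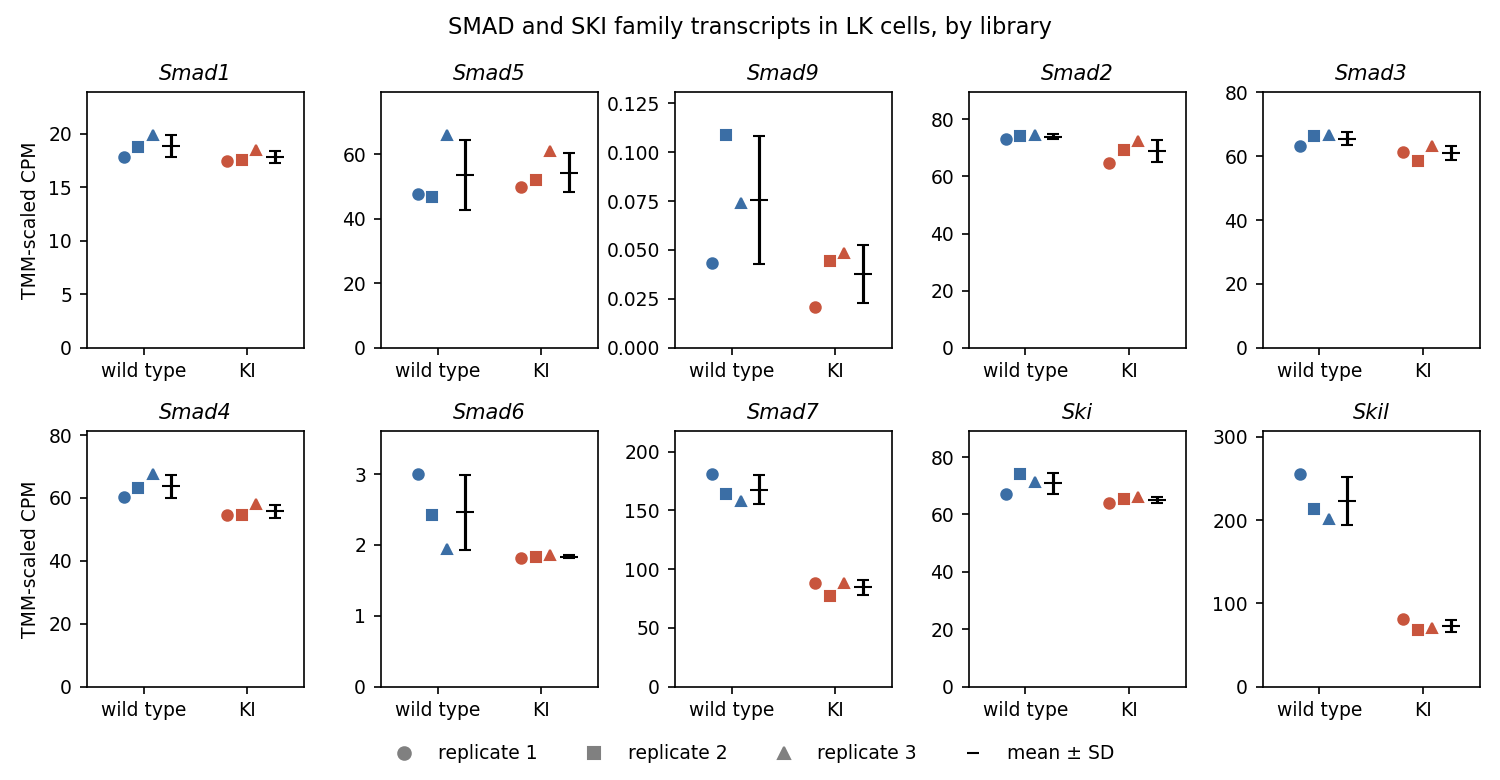
Levels of the 10 genes in each library, as TMM-scaled CPM on axes that start at 0 and differ between panels; KI stands for ASXL1-MT-KI, symbols mark the replicate number and the bar is the mean ± SD of 3 libraries. The Skil and Smad7 points of the 2 groups lie far apart, while those of Smad1, Smad5 and Smad3 overlap.

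Skil encodes SnoN, a corepressor that keeps SMAD2, SMAD3 and SMAD4 from activating their targets; it lies on chromosome 3 from 31095058 to 31122577 on the plus strand of GRCm38. The wild type libraries 1 to 3 had 11742, 9793 and 8151 counts, or 255.8, 213.6 and 200.8 CPM. The ASXL1-MT-KI libraries had 3893, 3052 and 2924 counts, or 81.1, 67.5 and 70.5 CPM. Every ASXL1-MT-KI library was thus far below the lowest wild type library. The mean went from 223.4 ± 28.8 to 73.0 ± 7.16 CPM (SD, n = 3 each), a log2 fold change of -1.61 ± 0.10 (SE; Benjamini-Hochberg adjusted p = 8.02e-05, edgeR). The 95% interval of the fall was 2.59-fold to 3.61-fold. Within each replicate number the log2 ratio was -1.66, -1.66 and -1.51. In RNA from a mixed population, fewer cells of a type and less RNA per cell cannot be told apart.

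Ski, the gene of the related corepressor SKI, lies on chromosome 4 from 155154075 to 155222592 on the minus strand. The wild type libraries had 67.0, 74.2 and 71.4 CPM and the ASXL1-MT-KI libraries 64.1, 65.3 and 66.0 CPM. The groups did not overlap, but the distance between them was small. The log2 fold change was -0.12 ± 0.054 (SE), with a 95% interval of -0.24 to -0.0021, and did not pass after adjustment (adjusted p = 0.158). The interval of Ski thus ends well above that of Skil, which runs from -1.85 to -1.37; the difference between the 2 genes was not tested. The Skil and Ski proteins share a conserved amino-terminal region, and the 90 bases of coding sequence in which the 2 genes are most alike, 75.6% identical, are shown here because they are where reads could most easily be shared; capitals mark the 22 differing bases.
Ski coding bases 382 to 471: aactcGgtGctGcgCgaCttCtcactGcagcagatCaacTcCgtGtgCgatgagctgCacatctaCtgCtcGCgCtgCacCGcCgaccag
Skil coding bases 505 to 594: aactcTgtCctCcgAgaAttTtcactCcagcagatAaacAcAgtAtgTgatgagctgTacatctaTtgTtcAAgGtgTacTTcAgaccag
The differences are spread over the whole window. Over all 45 pairs of the 10 genes, the longest run of identical bases between annotated transcripts was 29, for Smad1 and Smad9, against reads of 124 bases.

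Smad7, an inhibitory SMAD and an early target of TGF-beta signalling, lies on chromosome 18 from 75367529 to 75395935 on the plus strand. It had 8326, 7505 and 6428 counts in the wild type libraries, or 181.4, 163.7 and 158.4 CPM. In ASXL1-MT-KI it had 4234, 3482 and 3656 counts, or 88.2, 77.0 and 88.1 CPM. The groups were again widely separated. The log2 fold change was -0.99 ± 0.072 (SE; adjusted p = 6.63e-05, edgeR), a fall with a 95% interval of 1.78-fold to 2.22-fold. Within each replicate number the log2 ratio was -1.04, -1.09 and -0.85.

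Smad6, the inhibitory SMAD that acts mainly on BMP signals, was expressed at a far lower level; it lies on chromosome 9 from 63953076 to 64022059, on the minus strand and on the same chromosome as Smad3. The wild type libraries had 138, 111 and 79 counts, or 3.01, 2.42 and 1.95 CPM, and the ASXL1-MT-KI libraries 87, 83 and 77 counts, or 1.81, 1.84 and 1.86 CPM. The third wild type library came close to the ASXL1-MT-KI values. The log2 fold change was -0.42 ± 0.19 (SE; adjusted p = 0.164, edgeR), with a 95% interval of -0.85 to -0.00024, so a fall nearly as large as that of Smad7 could not be told from almost none. Without WT1 the estimate was -0.25.

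Smad4, the partner that both arms of the pathway need, lies on chromosome 18 from 73639009 to 73703780 on the minus strand. Its wild type libraries had 60.5, 63.1 and 67.8 CPM and its ASXL1-MT-KI libraries 54.7, 54.5 and 58.0 CPM. The groups did not overlap, and the means were 63.8 ± 3.69 and 55.7 ± 1.98 CPM (SD, n = 3 each). The log2 fold change of -0.19 ± 0.059 (SE) lay at the threshold (adjusted p = 0.0529, edgeR). It passed in DESeq2 (adjusted p = 0.0403), with DESeq2 size factors (adjusted p = 0.0496), without a count filter (adjusted p = 0.0464), and with the replicate number as a block (adjusted p = 0.006), a fit in which 30.5% of all genes passed. With total counts the adjusted p was 0.16.

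The receptor-regulated SMADs did not pass. In the TGF-beta and activin arm, Smad2 (chromosome 18, 76241580 to 76310963, plus strand) had 73.0, 74.2 and 74.7 CPM in wild type and 64.7, 69.3 and 72.5 CPM in ASXL1-MT-KI. The log2 fold change was -0.10 ± 0.055 (SE), with a 95% interval of -0.23 to 0.02 (adjusted p = 0.237, edgeR). Smad3 (chromosome 9, 63646767 to 63757994, minus strand) had 63.1, 66.4 and 66.8 CPM in wild type and 61.4, 58.5 and 63.1 CPM in ASXL1-MT-KI. Its log2 fold change was -0.10 ± 0.053 (SE), with a 95% interval of -0.22 to 0.02 (adjusted p = 0.234, edgeR). The intervals of both genes leave room for a fall of up to about 0.2 on the log2 scale, a small fraction of the change of Smad7 or Skil.

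In the BMP arm, Smad1 (chromosome 8, 79338395 to 79399518, minus strand) had 17.9, 18.8 and 19.9 CPM in wild type and 17.5, 17.5 and 18.5 CPM in ASXL1-MT-KI, a log2 fold change of -0.08 with a 95% interval of -0.25 to 0.08 (adjusted p = 0.49, edgeR). Smad5 (chromosome 13, 56703010 to 56742377, plus strand) had 47.7, 46.7 and 66.1 CPM in wild type and 49.7, 52.2 and 61.1 CPM in ASXL1-MT-KI. The third library of each group was the highest, and the distance between replicate numbers was larger than that between genotypes. The log2 fold change of Smad5 was 0.02 with a 95% interval of -0.33 to 0.37 (adjusted p = 0.942, edgeR), and its sign turned without WT1 (-0.05), WT2 (-0.07) or KI3 (-0.07). Without WT3 it was 0.20. Smad9 (chromosome 3, 54755582 to 54801257, plus strand) had 2, 5 and 3 counts in wild type and 1, 2 and 2 in ASXL1-MT-KI. The ratio of its summed counts, 5 against 10, was 0.491 with a 95% counting interval of 0.132 to 1.58. The interval covers counting error only. Smad9 was thus barely detected in either genotype.

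**Figure D2:**
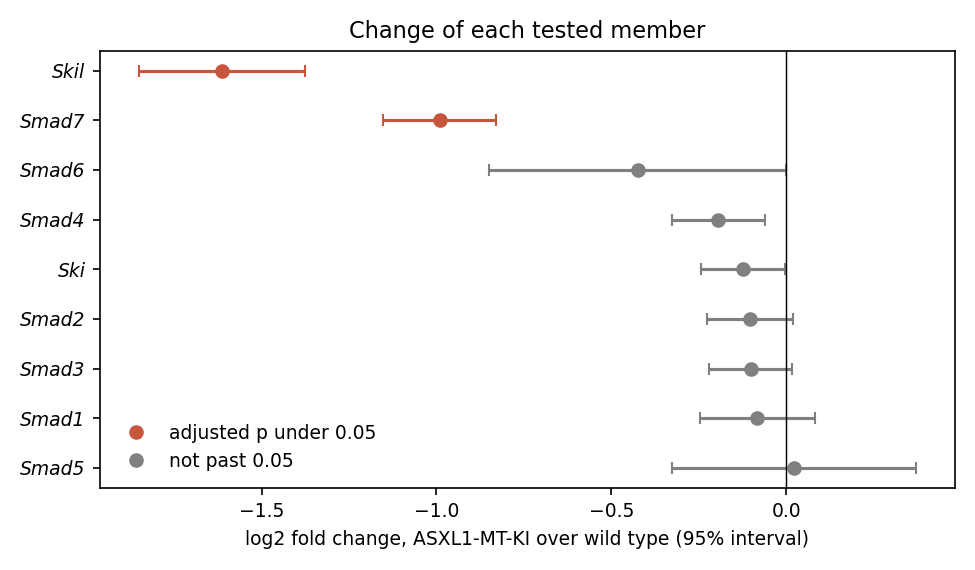
Log2 fold change of the 9 tested genes, ASXL1-MT-KI over wild type, with its 95% interval; coloured points passed an adjusted p of 0.05 in edgeR. Skil at -1.61 and Smad7 at -0.99 stand apart from the 7 other genes, which lie between -0.42 and 0.02.

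In all, 8 of the 9 estimates were below 0. Of the 9 genes, 6 had groups that did not overlap, where 35.2% of all genes tested did: Skil, Smad7, Smad6, Smad4, Ski and Smad2. An unadjusted p under 0.05 was reached by 5 of them, all but Smad2, and all as lower estimates; 30.4% of all genes tested reached it, 14.2% as lower. Scaling by total counts moved the median of all genes to 0.05, and the estimates of Ski and Smad2 then were -0.07 and -0.05.

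Levels can be compared between genes only per length of transcript, here as CPM per kb of annotated exons. In wild type cells the order was Smad7 at 37.1 ± 2.67, Skil at 23.0 ± 2.97, Smad4 at 17.2 ± 0.995, Ski at 12.7 ± 0.651, Smad3 at 11.8 ± 0.368, Smad2 at 8.42 ± 0.10, Smad5 at 7.21 ± 1.47, Smad1 at 3.01 ± 0.165, Smad6 at 0.767 ± 0.166 and Smad9 at 0.0141 ± 0.0061 CPM per kb (SD, n = 3). The 2 genes that fell were therefore the 2 most highly expressed of the set in wild type. The ranges of Smad2 and Smad5 overlapped, and those of Ski and Smad3 met within their spread, at 12.05 to 13.35 and 11.38 to 12.05. In ASXL1-MT-KI cells Smad7 was still first, at 18.7 ± 1.42 CPM per kb, ahead of Smad4 at 15.0 ± 0.533, while Skil took place 6, at 7.53 ± 0.738, below Ski and Smad3 and with a range that overlapped those of Smad2 and Smad5. With the length of the longest coding transcript instead of all exons, Skil took place 5 in ASXL1-MT-KI and Smad3 stood level with Ski in wild type, at 12.85 and 12.84 CPM per kb. The sources used here do not give the exon models that the authors counted, so the order is more certain for distant than for neighbouring genes.

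The balance between members differed accordingly. The ratio of Skil to Ski per kb was 2.19, 1.65 and 1.62 in the wild type libraries and 0.727, 0.594 and 0.613 in ASXL1-MT-KI. The ratio was lower in each ASXL1-MT-KI library than in any wild type library. Whether it lies above or below 1 depends on the length used: with the longest coding transcripts it was 3.14, 2.37 and 2.31 in wild type and 1.04, 0.851 and 0.878 in ASXL1-MT-KI. The ratio of Smad7 to Smad2 plus Smad3 was 2.04, 1.77 and 1.70 in wild type and 1.06, 0.923 and 0.993 in ASXL1-MT-KI. The ratio of Smad7 to Skil was 1.52, 1.64 and 1.69 in wild type and 2.33, 2.45 and 2.68 in ASXL1-MT-KI. The ratio of the TGF-beta arm, Smad2 plus Smad3, to the BMP arm, Smad1 plus Smad5, overlapped between the groups, with means of 2.01 ± 0.268 and 1.86 ± 0.0953 (SD, n = 3 each). These ratios are given without a test, as they restate the levels above.

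**Figure D3:**
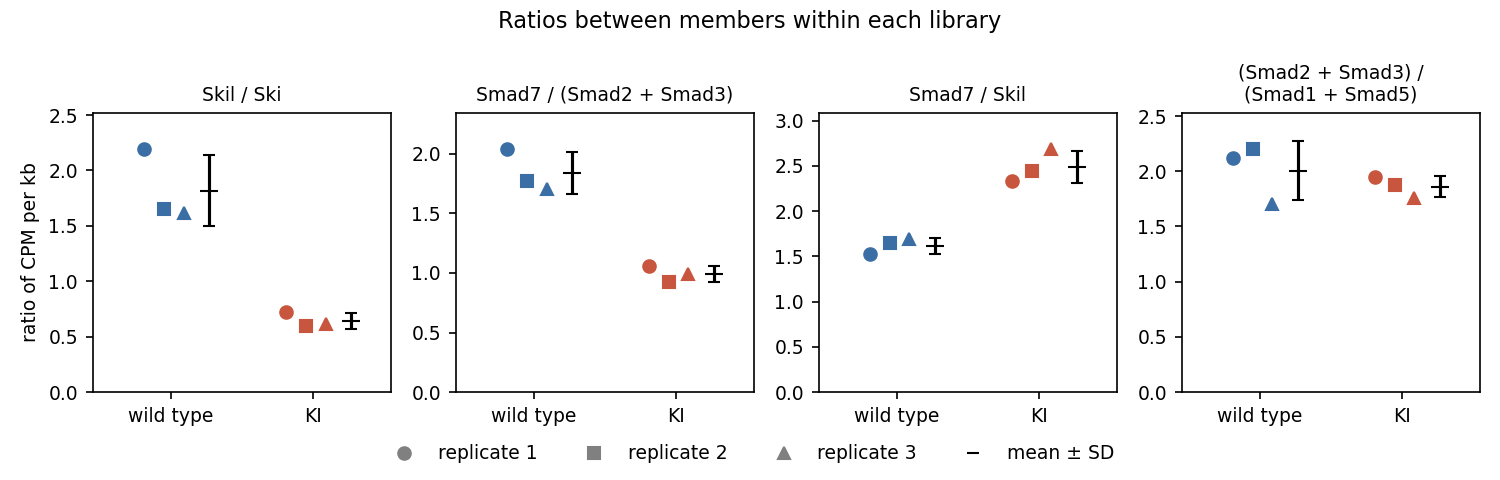
Ratios of CPM per kb between members within each library, on axes that start at 0; KI stands for ASXL1-MT-KI, symbols mark the replicate number and bars the mean ± SD. The first 3 ratios separate the groups, and the ratio of the TGF-beta arm to the BMP arm does not.

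The genes around the members were read from 7 lists of pathway roles, 172 distinct genes of which 137 were tested. Of these, 42 fell and 7 rose in edgeR, where 7.69% and 8.29% of all genes did. With the replicate block, in which 30.5% of all genes passed, 53 fell and 11 rose. In edgeR without the block, 20% of receptors and 18.75% of anchoring genes were called, against 16.0% of all genes. The share was 25% for corepressor partners, 28.6% for coactivators, 47.1% for ligands and 60% for the 5 antagonists. The target list had the largest share of falls. The lists were drawn up with earlier results of these data known, so this share is not an independent result. Pathway activity was not tested. Of 30 tested genes known as targets of TGF-beta or BMP signals, 17 fell and 2 rose, with a median log2 fold change of -0.52. With numbers 1 and 2 only, 13 fell and 2 rose, where all genes gave 1112 falls and 1301 rises.

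Among the targets that fell were Klf10, a zinc finger gene induced early by TGF-beta, with 186.9 ± 15.0 CPM in wild type against 105.3 ± 2.39 CPM in the knock-in (adjusted p = 7.93e-05, edgeR, log2 fold change -0.83), and Tsc22d1, another early TGF-beta gene, from 252.1 ± 19.6 to 143.7 ± 7.27 CPM (log2 fold change -0.81). Id3, which encodes an inhibitor of helix-loop-helix factors and is a classical BMP target, had 10.3, 8.11 and 7.32 CPM in wild type and 3.17, 2.77 and 2.84 CPM in ASXL1-MT-KI (log2 fold change -1.55 ± 0.15, SE; adjusted p = 0.000309, edgeR). The groups of Id3 were separated by more than 4 CPM. Cish, better known as a STAT5 target, fell by 1.49 on the log2 scale. The 2 targets that rose were Fn1, the fibronectin gene, from 9.07 ± 1.23 to 23.6 ± 4.19 CPM (adjusted p = 0.000534, edgeR), and Cdkn1c, the gene of the cell cycle inhibitor p57, from 1.33 ± 0.312 to 3.23 ± 0.233 CPM (adjusted p = 0.00256, edgeR). Both are reported TGF-beta targets and moved opposite to the 17. Myc, at 192.4 and 223.2 CPM, did not pass.

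Among textbook targets chosen after their values were seen, Id1 had 15.4, 12.5 and 8.89 CPM in wild type and 7.42, 7.83 and 5.42 CPM in ASXL1-MT-KI (log2 fold change -0.83, adjusted p = 0.0357, edgeR). That call was lost without WT1, WT2, KI1, KI2 or KI3 and without a count filter, with adjusted p from 0.0697 to 0.102. Id2 (adjusted p = 0.91) and Pmepa1 (adjusted p = 0.895, edgeR), a TGF-beta-induced gene that restrains SMAD2 and SMAD3, did not pass.

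**Figure D4:**
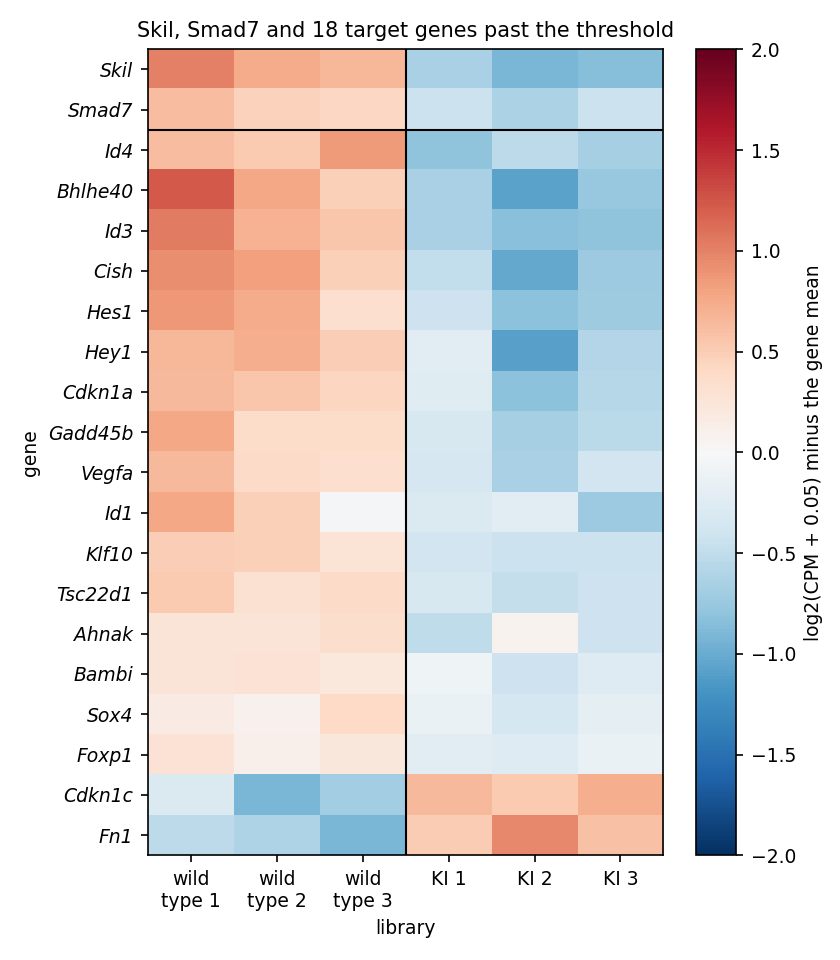
Level of Skil, Smad7 and 18 of the 19 target genes past the threshold in each library, as log2(CPM + 0.05) minus the gene's mean over 6 libraries; KI stands for ASXL1-MT-KI, and red is above and blue below the mean. The genes were selected by the comparison shown, 16 of those shown lower and 2 higher in ASXL1-MT-KI, and Id1 varies among the wild type libraries.

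Of 10 tested receptors, 2 fell and none rose in edgeR, DESeq2 or limma-voom, and 0 were higher at an unadjusted p under 0.05. The share of receptors called in edgeR was 20%, against 16.0% of all genes, 7.69% as falls and 8.29% as rises. The median was -0.08. Tgfbr2, the type II receptor that binds TGF-beta itself, had 52.6, 49.7 and 57.4 CPM in wild type and 36.5, 30.6 and 35.5 CPM in ASXL1-MT-KI. The groups did not overlap, and the log2 fold change was -0.64 ± 0.082 (SE; adjusted p = 0.00108, edgeR). Its partner Tgfbr1, chosen after its values were seen, stood at 44.2, 39.6 and 47.5 against 40.1, 39.5 and 42.7 CPM and did not pass (log2 fold change -0.10, adjusted p = 0.398, edgeR). Bmpr2, the BMP type II receptor, fell by 0.34 on the log2 scale (adjusted p = 0.016, edgeR; without KI1 it did not pass, at 0.0514, which leaves 1 receptor). Eng, the co-receptor endoglin and the most abundant of the list, was at 111.9 and 120.0 CPM (adjusted p = 0.596, edgeR).

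Ligands and the proteins that store or release them changed in both directions, with 5 of 17 falling and 3 rising and a median of -0.23. Tgfb1, the main TGF-beta ligand of blood cells and the most abundant of the list, went down to 360.0 ± 14.3 CPM, from 436.0 ± 3.59 in wild type (adjusted p = 0.00397, edgeR, log2 fold change -0.28). Furin, the protease that cleaves its precursor, fell by 0.55 on the log2 scale. Bmp1, a protease that frees latent TGF-beta despite its name, rose from 13.1 ± 0.505 to 28.1 ± 2.05 CPM. Ltbp4, a latency protein gene, rose by 0.91 and Gdf3 by 0.67 on the log2 scale. The falls of Bmp2 (adjusted p = 0.038) and Thbs1 (adjusted p = 0.0447, edgeR), the gene of the latent TGF-beta activator thrombospondin 1, did not hold under every alternative, although both were below 0 in all of them, at -2.08 to -1.21 for Bmp2 and -2.40 to -1.68 for Thbs1 on the log2 scale. Bmp2 was lost without WT1, WT2, WT3 or KI1 (adjusted p 0.0668 to 0.113), and Thbs1 without WT1, WT2, WT3, KI2 or KI3 (adjusted p 0.0754 to 0.148), without a count filter (0.0716) and with numbers 1 and 2 only (0.216). The falls of the list numbered 2 without WT1 or WT2 and 3 without KI1, KI2 or KI3. Nrros, which tethers latent TGF-beta on myeloid cells, was at 164.6 and 186.3 CPM and did not pass.

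Of 5 tested antagonists and pseudoreceptors, 2 fell and 1 rose, with a median of -0.09. Bambi, a decoy receptor that is also in the target list, fell from 27.9 ± 0.806 to 19.8 ± 2.26 CPM. Fst, the gene of the activin trap follistatin, fell from 0.73 ± 0.0711 to 0.138 ± 0.061 CPM. It had 37, 33 and 27 counts in wild type and 10, 5 and 4 in ASXL1-MT-KI. With a filter of CPM of at least 1 in 3 libraries Fst was not tested, which left 1 fall. Fstl1 rose from 1.73 ± 0.262 to 3.89 ± 0.0421 CPM. Twsg1, a BMP-binding protein gene and the most abundant of the list, was at 53.7 and 50.5 CPM and did not pass.

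The machinery that anchors, modifies and removes SMADs had the median closest to 0 of the 7 lists, at -0.03, with 6 of 32 genes falling. None rose in edgeR at the adjusted threshold, DESeq2 or limma-voom, while 2 were higher at an unadjusted p under 0.05 and 2 rose with the block or with total counts. The share of this list called in edgeR was 18.75%, against 16.0% of all genes, 7.69% as falls and 8.29% as rises. Ppm1a, a phosphatase of the receptor-regulated SMADs, fell by 0.29 and the deubiquitinase gene Usp11 by 0.32 on the log2 scale. Ldlrad4, which sequesters SMAD2 and SMAD3 from the receptor, fell by 0.68, a call lost without WT1 (adjusted p = 0.0688) or KI2 (adjusted p = 0.0525, edgeR). Fkbp1a, which guards the type I receptor, fell by 0.20 and was lost without WT1, WT3, KI1 or KI2 and with total counts (adjusted p 0.0747 to 0.146, edgeR). The falls of the list numbered 2 without WT1 or KI2, and 3 without KI1 or with total counts. The nuclear importer Ipo7 and the adaptor Strap, the most abundant of the list, were at 346.5 and 301.1 CPM in wild type and did not pass.

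Among partners of SKI and SnoN, 5 of 24 fell and 1 rose, with a median of -0.07. The falls included Tgif1 (84.1 ± 2.16 to 59.1 ± 4.08 CPM, adjusted p = 0.000743, edgeR) and Tgif2 (34.7 ± 1.80 to 24.8 ± 0.505 CPM), the genes of homeodomain corepressors of SMAD2 and SMAD3. Mecom, whose product EVI1 represses SMAD3, fell by 0.86 and its relative Prdm16 rose by 0.68 on the log2 scale. The falls of the list numbered 3 without WT3 or KI2, with numbers 1 and 2 only and with total counts, and 8 with the block. Ncor1 and Ctbp1, the most abundant of the list, were at 570.7 and 374.6 CPM in wild type and did not pass.

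Of 21 coactivators and DNA-binding partners, 6 fell and none rose in edgeR, DESeq2 or limma-voom, and 0 were higher at an unadjusted p under 0.05. With the block, in which 30.5% of all genes passed, 10 fell. The median was -0.12. The falls included Runx2 (127.5 ± 12.2 to 82.7 ± 3.35 CPM), Runx1 (200.8 ± 9.37 to 157.0 ± 9.24 CPM), the coactivator gene Crebbp (log2 fold change -0.36) and Foxo1 (-0.43). Jun and Fos, the most abundant of the list, did not pass (adjusted p = 0.712 and 0.909, edgeR).

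**Figure D5:**
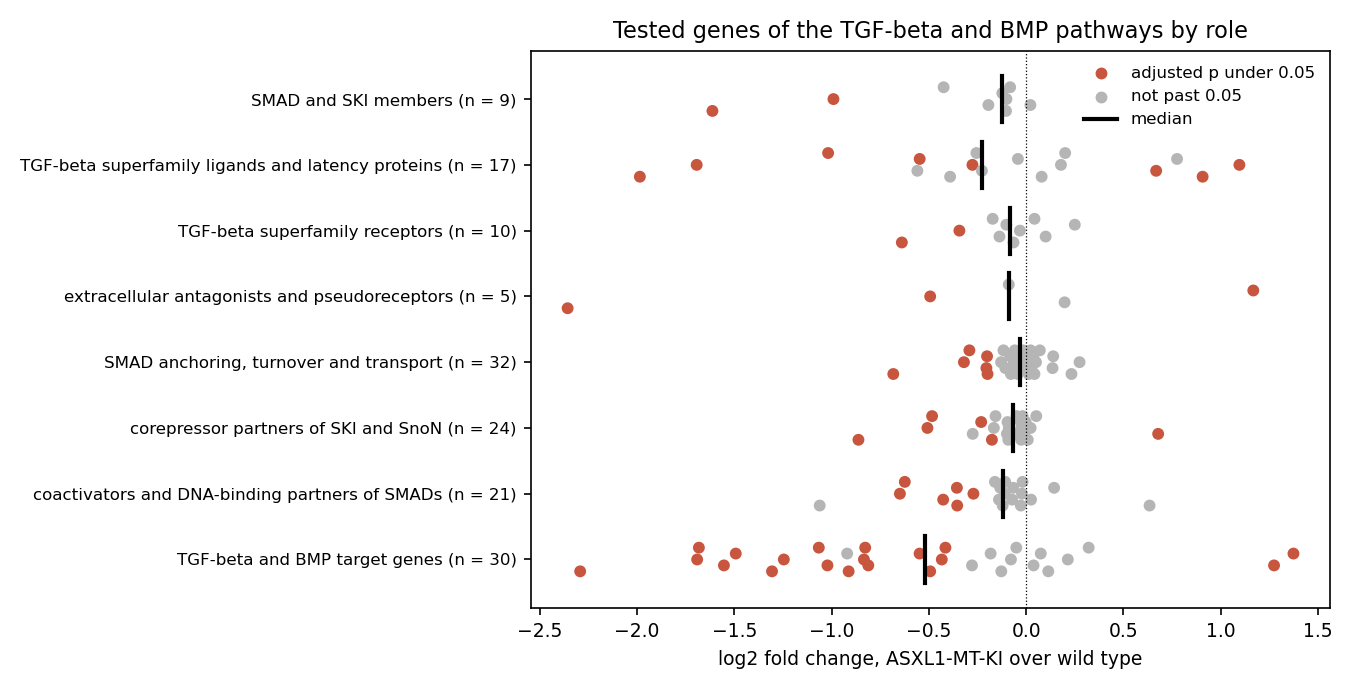
Log2 fold change of each tested gene, ASXL1-MT-KI over wild type, for the SMAD and SKI members and for 7 lists of pathway roles; coloured points passed an adjusted p of 0.05 and black bars are medians. The target gene median, at -0.52, is the lowest, and the anchoring and turnover genes lie closest to 0, at -0.03.

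Likeness to the members that fell was measured over the 6 libraries as the root mean square difference in log2 CPM, each gene centred on its own mean, among 11747 other genes with a mean of at least 1 CPM. The genes nearest to Skil were Id3, at 0.0601, Neurl3, at 0.0886, and Crem, at 0.108, which encodes a cAMP-responsive repressor. The genes nearest to Smad7 were F2r, the thrombin receptor gene, at 0.0613, and Vegfa, at 0.0658. This distance takes in the gap between the genotypes, so genes with a fold change near that of the member come first. The log2 fold changes were -1.55, -1.46 and -1.42 for Id3, Neurl3 and Crem, and -0.87 and -0.91 for F2r and Vegfa. Of these 5, Id3 and Vegfa are also in the target list. Shared regulation was not tested. F2r went from 131.4 ± 9.05 to 71.8 ± 6.07 CPM.

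Markers of other programmes and cell types moved beside these results. Of 16 immediate early genes, whose transcripts rise quickly when cells are stimulated, 7 fell and none rose in edgeR, DESeq2 or limma-voom, with 0 higher at an unadjusted p under 0.05 and 1 rising with the block. Their summed level was 5861 to 8762 CPM in wild type and 4642 to 6634 CPM in ASXL1-MT-KI. Of 10 megakaryocyte and platelet markers 3 fell, among them Itga2b and Treml1, with a summed level of 319.0 to 365.6 against 253.5 to 335.2 CPM; Pf4, chosen after its values were seen, was at 33.7 and 32.7 CPM and did not pass. Of 10 erythroid markers 1 rose, or 9 with the block and 5 with numbers 1 and 2 only (1368 to 2230 against 1915 to 2621 CPM). The block called more genes throughout, 30.5% of all genes tested against 16.0% without it. With numbers 1 and 2 only, all genes gave 1301 rises and 1112 falls. Of 7 tested B cell markers 3 fell, all below 3 CPM, and the list summed to 22.1 to 25.7 and 21.7 to 24.5 CPM. Monocyte and macrophage markers had 1 of 10 higher and 1 lower (738.6 to 751.4 against 823.5 to 875.5 CPM), 5 and 1 with the block. In stromal and endothelial markers 1 of 6 tested fell, Pecam1, which did not pass with numbers 1 and 2 only. The whole stromal and endothelial list summed to 132.0 to 154.5 against 118.1 to 125.5 CPM. Mature neutrophil markers (43.0 to 88.0 against 58.8 to 96.7 CPM, 7 tested), mast cell and basophil markers (285.9 to 374.8 against 229.6 to 356.6 CPM, 7 tested) and T and NK cell markers (170.4 to 188.1 against 149.8 to 198.5 CPM, 4 tested, nearly all of it Nkg7) had no call in edgeR or limma-voom. At an unadjusted p under 0.05 the last 3 lists had 0, 2 and 1 genes, in DESeq2 0, 2 and 0, and with the block 4, 4 and 2. Of the genes that define T and B cells, Cd3g was at 0 in every library, Cd3e had 3 counts in WT1 and 0 elsewhere, and Ms4a1 had 2 counts in KI3 and 0 elsewhere. The part of these genes or cell types, and of the changes of Flt3, Cd34 and Myb, in the change of Skil and Smad7 was not tested.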

How the data were processed

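Total RNA of LK cells was made into libraries from 200 ng with a kit that does not mark strand and read as 124-base pairs, per the labels' protocols. HISAT2 2.0.4 and mm10 are named in the submitters' processing notes; the sources used here do not give the counting tool, annotation or treatment of shared reads. The values the authors deposited are raw counts by gene symbol, not normalized, and the 6 columns were assigned by genotype and number. No row lacks a gene name, and 6240 are 0 in all libraries. CPM values are scaled with TMM factors.

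The 2 genotypes were compared in R 4.3.3 using edgeR 4.0.16 (a minimum of 10 counts in filterByExpr, TMM, robust quasi-likelihood F test, genotype as the only term, Benjamini-Hochberg over 13548 genes, threshold 0.05). Each standard error is the log2 fold change over the root of F, and 95% intervals use the t distribution with the fit's degrees of freedom and are not adjusted. The members, lists and tests were chosen with earlier results of these data known, so they give no independent support for one another. From each list the text names up to 4 genes per direction by p and the 2 most abundant. For each member that fell it names up to 3 of the genes most like it. Some genes that this rule takes are not reported here; counts and medians of lists include them. No label says that replicates came from separate animals, so p-values measure the spread between these libraries.

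Loci, exon lengths and coding sequences come from GENCODE M21 on GRCm38, the assembly mm10 names. Among the 10 genes, annotated genes of another name overlap Smad4 (a pseudogene, outside its exons) and Smad5 (3 small RNAs). RefSeq promoter entries matched Smad1, Smad3, Smad5, Smad6, Smad9 and Ski; none is printed. No 2 libraries of a group agreed within sampling noise.

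Replicate numbers come from the titles. Deviations from the group mean correlated across genes, which are not independent, between same-numbered libraries at 0.387, 0.246 and 0.448, all above 0.1. The replicate number was therefore used as a block in an alternative fit. Wild type 2 with ASXL1-MT-KI 1 gave 0.142. No label states a pairing, and the test without the block remained the main one. On simulated counts with 13548 genes the test found 82.1% of changes of 1.5-fold, 88.1% of those of 2-fold and 95.5% of those of 4-fold, and 3.28% of calls were false. The simulated libraries had no shared deviation by replicate number, and each gene's spread followed the trend over all genes. The simulation gave 183 calls, against 2165 in the data. These shares need not hold for the real comparison. Alternatives were DESeq2 1.42.0 and its size factors, total counts, limma-voom (limma 3.58.1), no filter, CPM of at least 1 in 3 libraries, the replicate block, a threshold of 0.10 and leaving out each library; a fit on numbers 1 and 2 only was chosen after seeing the data. Plots were made in matplotlib 3.10.9.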

Additional observations from a re-analysis of the deposited data

How the results depend on the processing

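Skil and Smad7 fell past the threshold under all 14 alternatives run on single genes: the log2 fold change ran from -1.70 to -1.50 for Skil (adjusted p up to 0.00277) and from -1.06 to -0.93 for Smad7 (adjusted p up to 0.000818). The count of members that fell was 2 or 3 under every alternative, the third being Smad4, and none rose in any of them. With the replicate block the counts over all genes became 2256 rises and 1876 falls and the pathway lists had 11 rises; the block changed the call of no member other than Smad4. On leaving out 1 library, all genes gave 534 to 1216 rises and 587 to 1041 falls. Of the 49 pathway genes called, 31 passed under every alternative that could be fitted and 18 were lost under at least 1, and none changed sign past the threshold. The cause of these shifts was not tested. Smad6 had 77 to 138 counts a library and Smad9 1 to 5, the fewest of the members, so counting error is largest for these genes.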

Other observations

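Acvr1b, a type I receptor of the activin and TGF-beta arm, resembled Smad5 in following the replicate number. It had 18.8, 20.8 and 28.9 CPM in WT1, WT2 and WT3, against 19.6, 20.2 and 25.7 CPM in KI1, KI2 and KI3 (wild type and ASXL1-MT-KI by number), with no call for genotype (adjusted p = 0.848, edgeR). Both genes were chosen after their values were seen, and what the number 3 libraries share is not given in the sources used here.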
